A study of Mus musculus with 4 samples.

Results

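Glycolysis turns glucose into pyruvate in the cytosol, and the pentose phosphate branch diverts glucose 6-phosphate into NADPH and ribose for biosynthesis. Pyruvate is then reduced to lactate and exported, or enters the mitochondria through the pyruvate dehydrogenase complex. Activated effector T cells are known for a high glycolytic rate, whereas Foxp3, the lineage factor of regulatory T (Treg) cells, has been linked to lower glycolysis and more oxidative metabolism. The enzymes, transporters and regulators of this route were followed at the RNA level, from glucose uptake to lactate export. They were chosen by name: every probe set whose platform symbol was exactly 1 of 32 listed genes. Of these, 29 genes were found, with 68 probe sets among the 45101 of the array and 18194 genes in all. The other 3 (Eno1, G6pdx and Gpi1) had no probe set under their symbol and were not analysed here. Gapdh was represented by 3 control probe sets alone, so that 28 genes had an ordinary probe set.

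The samples were mouse CD4+ YFP+ Ly5.2+ T cells, 1 array each, and the comparison asked what differs in mature peripheral Treg cells once Foxp3 is ablated. In the deleted group (Foxp3delta, 2 arrays) the Foxp3 gene was flanked by loxP sites, and in the wild-type group (Foxp3+, 2 arrays) it was not. Both groups had been treated with Cre recombinase through HR-MMPCreGFP, exposure to Cre was read from YFP, and both were taken 6 weeks after adoptive transfer, so that Cre, sorting and transfer were shared by the controls. The sources used here name no strain, age or host and do not say whether replicates came from separate animals, so a p-value covers the spread between samples that may differ only technically. Values are log2 intensities after GCRMA, the background correction and normalization of the authors. A gene was tested where its mean over the 4 arrays was at least 4 on that scale, since dimmer probe sets lie near the floor.

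Foxp3 itself read 8.77 and 8.75 on the deleted and 11.40 and 11.23 on the wild-type arrays, lower by 2.55 (SE 0.28, adjusted p = 0.0749 in limma). All 6 Treg markers listed for the check (Foxp3, Il2ra, Ctla4, Ikzf2, Tnfrsf18 and Nrp1) were lower in both deleted arrays, and the CD4 T cell markers Cd3e, Cd3d, Cd3g, Cd4 and Cd5 were above a log2 intensity of 7 on each array. Of these, Cd4 was higher in deleted cells by 1.56 (SE 0.52) and Cd3d by 0.46 (SE 0.29) without overlap, while Cd3e, Cd3g and Cd5 overlapped. The summed intensity of the CD4 T cell markers was 12604.9 to 13173.4 on the deleted and 10026.9 to 10300.5 on the wild-type arrays. Both CD8 genes (Cd8a and Cd8b1) had means below 4. Of 6 measured B cell markers, 2 had a mean of at least 4. These were Cd79b, which read 4.04 and 4.94 in deleted cells and 6.58 and 6.49 in wild-type cells (lower by 2.04, SE 0.42, adjusted p = 0.220 in limma), and Cd22, higher by 1.37 (SE 0.69), while Cd79a and Pax5 lay near the floor. The summed intensity of the B cell markers was 107 to 141 on the deleted and 136 to 184 on the wild-type arrays. Klra8, 1 of 2 measured NK markers, had a mean of 6.30 and Ncr1 lay near the floor, and their sum was 50.5 to 195 against 55.7 to 93.8. Of 3 measured erythroid markers, Slc4a1 had a mean of 7.03 and Alas2 of 4.04, with Hba-a1 near the floor and a sum of 80.7 to 231 against 91.3 to 337. Of 10 myeloid markers, 7 had a mean of at least 4, while Itgam, Cd14 and Mpo did not. The brightest, S100a8, read 12.10 and 10.60 in deleted and 9.78 and 10.25 in wild-type cells, higher by 1.34 (SE 0.55) without overlap. The others of these 7 overlapped, among them S100a9 (11.80 and 9.65 against 9.68 and 9.50) and Lyz2 (9.69 and 6.30 against 5.65 and 7.24). The summed intensity of the myeloid markers was 3089 to 10228 on the deleted and 2466 to 2563 on the wild-type arrays, highest in deleted replicate 1. The part of such cells in the values below was not tested, and in bulk samples fewer cells of a type and less RNA per cell cannot be told apart.

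The promoters of 4 genes that the results turn on are shown first, because the pathway is a known target of hypoxia-inducible factor and of Myc. Ldha and Ldhb encode the lactate dehydrogenase subunits and differed in opposite directions, Pfkp was the phosphofructokinase gene with the tightest replicates, and Tpi1 was lower on each of its probe sets. Each sequence is RefSeq's window of GRCm38.p6 (250 bases before the gene's start and 50 after; the first window listed for a gene), 5′ to 3′ on the gene's strand. Capitals mark the hypoxia response cores ACGTG and GCGTG and the E-box CACGTG on either strand, which overlap where CACGTG holds ACGTG.
Ldha chr7:46845554-46845853, plus strand: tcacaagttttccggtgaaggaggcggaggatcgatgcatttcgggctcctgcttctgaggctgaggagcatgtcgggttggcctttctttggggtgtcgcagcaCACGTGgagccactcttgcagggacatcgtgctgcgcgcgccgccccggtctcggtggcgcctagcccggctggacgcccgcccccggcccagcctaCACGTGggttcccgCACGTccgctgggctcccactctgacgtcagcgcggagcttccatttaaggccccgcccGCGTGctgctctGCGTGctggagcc
Ldhb chr6:142507908-142508207, minus strand: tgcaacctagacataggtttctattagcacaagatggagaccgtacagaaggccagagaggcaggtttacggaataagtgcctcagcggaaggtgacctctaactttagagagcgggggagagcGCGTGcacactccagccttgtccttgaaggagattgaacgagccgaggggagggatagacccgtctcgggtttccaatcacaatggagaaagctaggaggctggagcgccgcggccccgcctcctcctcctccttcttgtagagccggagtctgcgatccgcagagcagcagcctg
Pfkp chr13:6648722-6649021, minus strand: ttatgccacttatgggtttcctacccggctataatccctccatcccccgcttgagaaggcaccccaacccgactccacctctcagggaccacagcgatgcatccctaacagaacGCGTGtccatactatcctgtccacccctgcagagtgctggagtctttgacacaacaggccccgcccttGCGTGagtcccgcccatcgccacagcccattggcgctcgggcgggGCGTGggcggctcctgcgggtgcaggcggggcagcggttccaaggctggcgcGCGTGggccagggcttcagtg
Tpi1 chr6:124814109-124814408, minus strand: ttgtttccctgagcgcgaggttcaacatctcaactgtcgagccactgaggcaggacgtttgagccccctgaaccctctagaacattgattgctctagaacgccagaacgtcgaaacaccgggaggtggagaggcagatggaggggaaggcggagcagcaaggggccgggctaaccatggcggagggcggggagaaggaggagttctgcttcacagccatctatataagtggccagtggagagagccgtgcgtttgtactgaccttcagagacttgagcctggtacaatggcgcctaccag
The Ldha window held 2 copies of CACGTG, and counted over both strands it held 5 matches to ACGTG and 2 to GCGTG. Each CACGTG gives 2 of these ACGTG matches, 1 per strand. A further Ldha window, not shown, held 2 GCGTG and neither ACGTG nor CACGTG. The Ldhb window held 1 GCGTG and no ACGTG, the Pfkp window held 4 GCGTG, and the Tpi1 window held neither core. Of the 32 listed genes, 31 had a window in this table, 45 windows in all, and Slc2a3 had none. Some windows of the same gene overlap, as 2 of Aldoa do, so a match can count more than once in the shares of windows. ACGTG stood in 48.9% of these 45 windows against 19.6% of all 32851 windows of that length, GCGTG in 60.0% against 32.4%, and CACGTG in 11.1% against 7.2%. The windows of the listed genes were also richer in G and C (median 61.0% against 52.7%), and the part of base composition in these shares was not tested. A match describes letters in the window and is not a binding site.

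As a whole the pathway did not move one way between deleted and wild-type cells. Of the 28 genes, 13 had a higher and 15 a lower mean in deleted cells, with a median difference of -0.020 on the log2 scale against -0.040 over all 18193 genes with an ordinary probe set. Both deleted arrays lay above both wild-type arrays for 5 genes (Hk1, Pfkl, Pfkp, Ldha and Pdhb) and below them for 5 (Slc2a3, Tpi1, Pgam1, Eno3 and Ldhb). That is 17.9% in each direction. Over all genes 9.66% were higher and 39.4% lower in this sense. Of the 26 listed genes past the filter the share was 19.2% in each direction. Over all 8629 genes past the filter 17.7% were higher and 22% lower, so the shares of tested genes lie near their background. With a difference of at least 1 as well, Pfkp was higher and Tpi1 and Ldhb were lower, against a background of 5.57% of tested genes higher and 4.93% lower.

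No gene of the route passed the test. Aldoc and Slc16a3 lay below the filter, and of the 26 tested genes 0 had an adjusted p under 0.05 in limma. The same fit called 0% of the 8629 genes. The lowest adjusted p among the 26 was 0.318, for Ldhb. At an unadjusted p under 0.05 there were 4 genes (Ldhb, Tpi1, Pfkp and Slc2a3), against 9.95% of all tested genes, and this count was 0 without wild-type replicate 1 and 2 without either deleted replicate 2 or wild-type replicate 2. With 2 arrays against 2, an exact permutation test cannot go below p = 0.333. The differences below are therefore described as values. The plot of each array shows that most genes scatter around the wild-type mean, and that few pairs of deleted arrays stand clear of it.

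**Figure D1:**
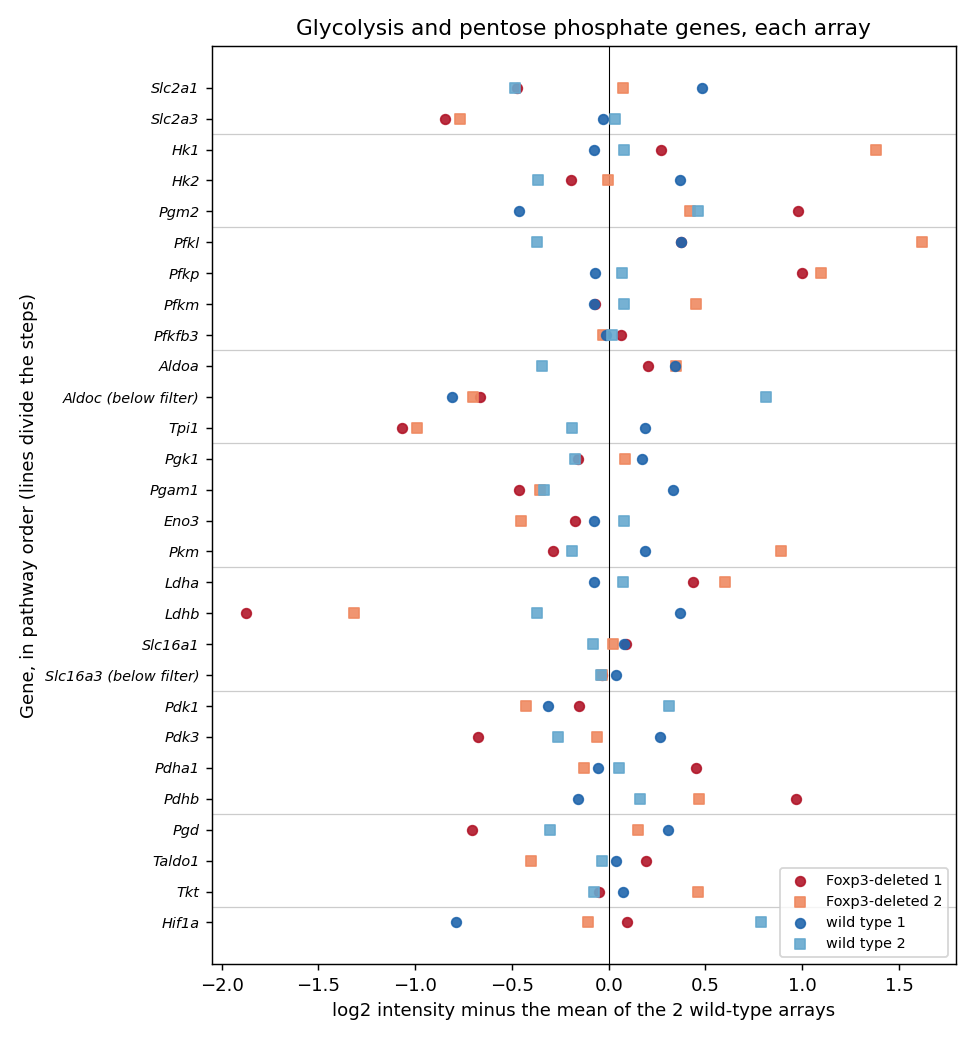
Log2 intensity of each of the 28 genes on each of the 4 arrays, minus the mean of the 2 wild-type arrays; genes run in pathway order from glucose uptake at the top to Hif1a at the bottom, and lines divide the steps. Both deleted arrays sit well to the right of the wild-type arrays for Pfkp and well to the left for Slc2a3, Tpi1 and Ldhb, while deleted replicate 2 alone lies far to the right for Hk1, Pfkl and Pkm.

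Glucose enters T cells through the facilitative transporters GLUT1 and GLUT3, encoded by Slc2a1 and Slc2a3. Slc2a3 read 9.84 and 9.92 in deleted cells and 10.65 and 10.72 in wild-type cells (intensities of 917 and 966 against 1612 and 1681). The replicates of each group lay within 0.1 of one another and the groups did not overlap. Slc2a3 was lower by 0.81 (SE 0.27, 95% interval -1.48 to -0.14, adjusted p = 0.406 in limma), or 57.2% of the wild-type level. Its second bright probe set was lower by 1.004, also without overlap, and 2 further ones lay near the floor. Both bright probe sets are of a kind that can share sequence with other transcripts. Slc2a1 read 9.54 and 10.09 against 10.50 and 9.53, a difference of -0.20 (SE 0.44) that was smaller than the gap between the 2 wild-type arrays. Its 3 probe sets ranged from -0.27 to 0.20 and overlapped between the groups in every case.

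Hexokinases trap glucose as glucose 6-phosphate, Hk1 being the housekeeping form and Hk2 the form induced on activation. Hk1 read 9.41 and 10.52 in deleted cells and 9.06 and 9.22 in wild-type cells. The groups did not overlap, but the higher deleted array carried most of the difference of 0.83 (SE 0.45, adjusted p = 0.666 in limma), which was 0.27 without deleted replicate 2. Hk2 read 6.03 and 6.22 against 6.59 and 5.86 and differed by -0.10 (SE 0.40). Pgm2, a member of the phosphoglucomutase family, read 6.45 and 5.89 against 5.01 and 5.94. Its groups overlapped through wild-type replicate 2, with a difference of 0.70 (SE 0.47).

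Phosphofructokinase commits sugar to glycolysis and is built from platelet-type (Pfkp), liver-type (Pfkl) and muscle-type (Pfkm) subunits. Pfkp read 9.64 and 9.74 in deleted cells and 8.58 and 8.71 in wild-type cells (intensities of 800.1 and 856 against 382 and 419.8). Both deleted arrays were about equally high, so that Pfkp was higher by 1.05 (SE 0.30, 95% interval 0.28 to 1.82, adjusted p = 0.360 in limma), or 2.07-fold. Its 2 other probe sets lay near the floor and differed by 0.024 and -0.0077, so this rests on 1 probe set, and the mean over all 3 was higher by 0.35. Pfkl read 7.62 and 8.87 against 7.62 and 6.88. Here deleted replicate 1 only just cleared wild-type replicate 1 and deleted replicate 2 stood apart, with a difference of 0.997 (SE 0.55, adjusted p = 0.673 in limma) and 0.38 without that array. The 3 Pfkl probe sets had similar differences of 0.997, 1.02 and 1.06, each without overlap between the groups. Deleted replicate 2 was the highest array on all 3, so they share that limit. The 2 dimmer ones were close to the filter in wild-type cells, at 4.30 and 4.38 and at 4.08 and 3.73. The dimmest had a wild-type mean of 3.91 and passed the filter only through its deleted arrays. Pfkm was dim (4.30 and 4.82 against 4.30 and 4.45) and differed by 0.19 (SE 0.34). Pfkfb3, whose product makes the allosteric activator fructose 2,6-bisphosphate, read 5.41 and 5.32 against 5.33 and 5.37, with a difference of 0.017 (SE 0.32).

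Aldolase splits fructose 1,6-bisphosphate and triose phosphate isomerase, the product of Tpi1, interconverts the resulting triose phosphates. Tpi1 read 10.02 and 10.10 in deleted cells and 11.28 and 10.90 in wild-type cells (intensities of 1037 and 1097 against 2482 and 1910). Both deleted arrays lay below both wild-type arrays on each of its 3 probe sets, which were lower by 1.03, 0.69 and 0.58. On the brightest of these the SE was 0.28, the 95% interval -1.74 to -0.32 and the adjusted p = 0.336 in limma, with 49.0% of the wild-type level. Aldoa, the main aldolase, read 11.59 and 11.74 against 11.74 and 11.05, and its 5 probe sets ranged from -0.094 to 0.58 with overlapping groups on each. Aldoc, the brain-type aldolase, was near the floor on 3 arrays and read 4.75 in wild-type replicate 2.

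Among the later steps, Pgk1, which encodes the first ATP-yielding enzyme, read 11.70 and 11.94 in deleted cells and 12.03 and 11.68 in wild-type cells. Its groups overlapped, and its 3 probe sets differed by -0.052 to 0.058, with a 95% interval of -0.66 to 0.58 on the brightest. Pgam1 (phosphoglycerate mutase) read 8.72 and 8.83 against 9.51 and 8.85, lower by 0.41 (SE 0.37) with groups that nearly touched. Eno3, the muscle-type enolase, was dim, at 5.05 and 4.77 against 5.14 and 5.30, and was lower by 0.31 (SE 0.32). The other listed enolase, Eno1, had no probe set under its symbol. Pkm, which encodes the pyruvate kinase of T cells, read 8.52 and 9.69 against 8.99 and 8.62. Its difference of 0.30 (SE 0.49) turned to -0.29 without deleted replicate 2. By the maker's naming, probe sets that end in _x_at or _s_at share sequence with other transcripts, so their signal may not be exclusive to 1 gene. These are all 5 of Aldoa, 3 of Pgd, 2 each of Pgk1, Ldhb and Slc2a3, and 1 each of Tpi1 and Tkt, including the brightest of Aldoa, Pgk1, Pgd, Tkt and Slc2a3.

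**Figure D2:**
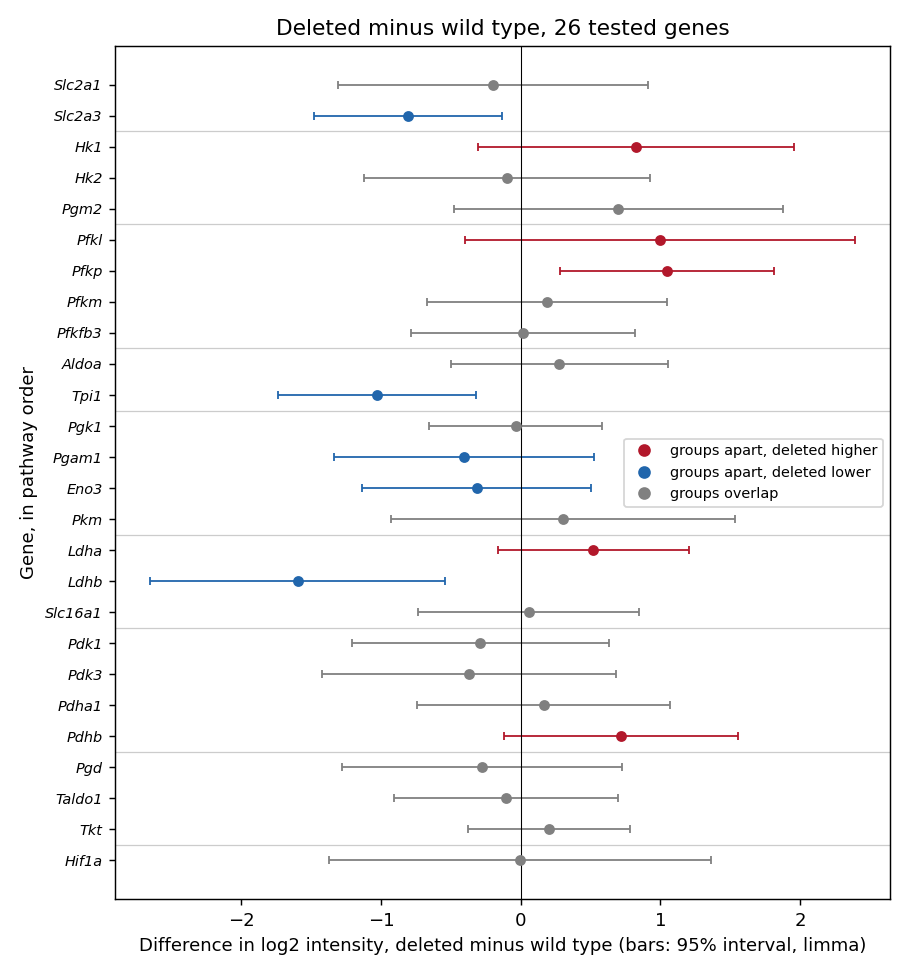
Difference in log2 intensity between the 2 deleted and the 2 wild-type arrays for the 26 tested genes, with 95% intervals from limma; colour shows whether the 2 groups overlapped. Only the intervals of Slc2a3, Pfkp, Tpi1 and Ldhb leave out 0 before adjustment, and none of the 26 passed an adjusted p of 0.05.

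Gapdh, whose product oxidises glyceraldehyde 3-phosphate, was measured at the 3′ end, the middle and the 5′ end of its transcript. The 3′ probe set read 12.51 and 13.04 in deleted cells and 12.82 and 12.68 in wild-type cells, a difference of 0.019 (SE 0.24). The middle one read 9.28 and 9.43 against 8.40 and 8.68, higher by 0.81 (SE 0.31, adjusted p = 0.517 in limma). The 5′ one read 6.61 and 8.87 against 5.58 and 5.60, higher by 2.15 (SE 0.78, adjusted p = 0.491 in limma). The same transcript thus read level at its 3′ end and higher in both deleted arrays towards its 5′ end. Labelling starts from the poly(A) tail, so that the 5′ signal is known to depend on RNA integrity and on the length of the labelled copy.

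The actin controls had the same order. Their 5′ probe set was higher by 2.54 and their middle one by 1.36 in deleted cells, against 0.30 at the 3′ end. Controls for the transferrin receptor and pyruvate carboxylase transcripts had means below 4 and could not be read this way. The 5′ minus 3′ difference for Gapdh was -5.89 and -4.17 on the deleted and -7.24 and -7.08 on the wild-type arrays, and for actin -4.91 and -4.47 against -7.26 and -6.60. Deleted replicate 2, which had the smallest gap, was also the highest array for Hk1, Pfkl and Pkm. Over the 26 tested genes it was the highest array for 8 and the lowest for 5, against 23.6% and 30% of all tested genes, and wild-type replicate 1 was likewise the highest for 8. The position of the other probe sets is not among the sources used here, and the part of this end effect in the differences of the pathway genes was not tested. The plot of control probe sets shows both transcripts side by side.

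**Figure D3:**
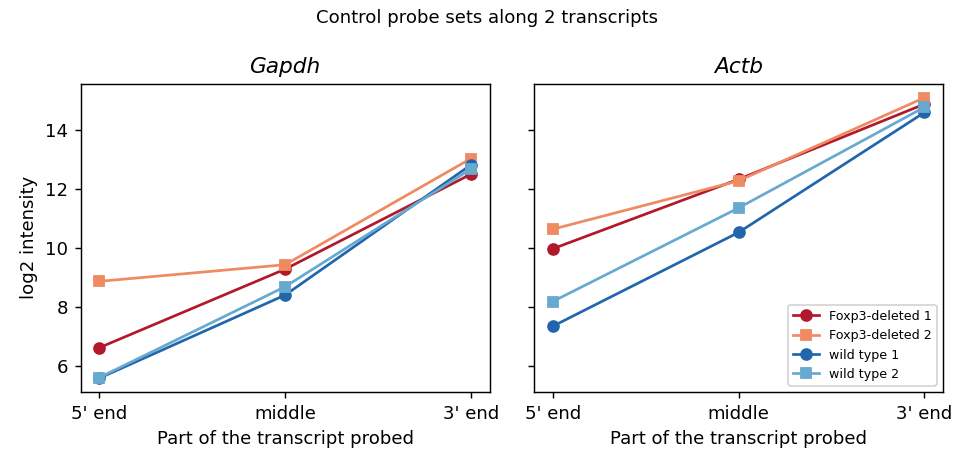
Log2 intensity of the control probe sets at the 5′ end, the middle and the 3′ end of Gapdh (left) and Actb (right), 1 line per array. The 4 arrays lie close together at the 3′ end, and the deleted arrays lie above the wild-type arrays at the 5′ end of both, by 2.15 on average for Gapdh and 2.54 for Actb.

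At the lactate step the 2 subunit genes of lactate dehydrogenase differed in opposite directions. Ldha encodes the subunit that prevails in glycolytic tissue and Ldhb the one that prevails in oxidative tissue. Ldhb read 7.85 and 8.40 in deleted cells and 10.09 and 9.35 in wild-type cells (intensities of 230.2 and 339 against 1089 and 654). Both deleted arrays lay below both wild-type arrays on each of the 4 Ldhb probe sets, which were lower by 1.60, 1.16, 1.16 and 0.91, and 2 of these 4 are among the probe sets named _x_at. On the brightest the SE was 0.42, the 95% interval -2.65 to -0.54 and the adjusted p = 0.318 in limma, and 33.1% of the wild-type level was left. Leaving out 1 array at a time gave differences between -1.96 and -1.23.

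Ldha read 10.54 and 10.71 in deleted cells and 10.03 and 10.18 in wild-type cells. Both deleted arrays were higher by a small and even amount, with a difference of 0.52 (SE 0.27, 95% interval -0.16 to 1.20, adjusted p = 0.649 in limma), and the range with 1 array left out was 0.44 to 0.60. The lactate transporter MCT1 (Slc16a1) read 8.96 and 8.89 against 8.95 and 8.78, and its interval of -0.73 to 0.84 still allows changes of up to that size. Slc16a3, which encodes MCT4, the transporter of strongly glycolytic cells, lay at the floor on all 4 arrays (2.70 to 2.78) and could not be compared.

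**Figure D4:**
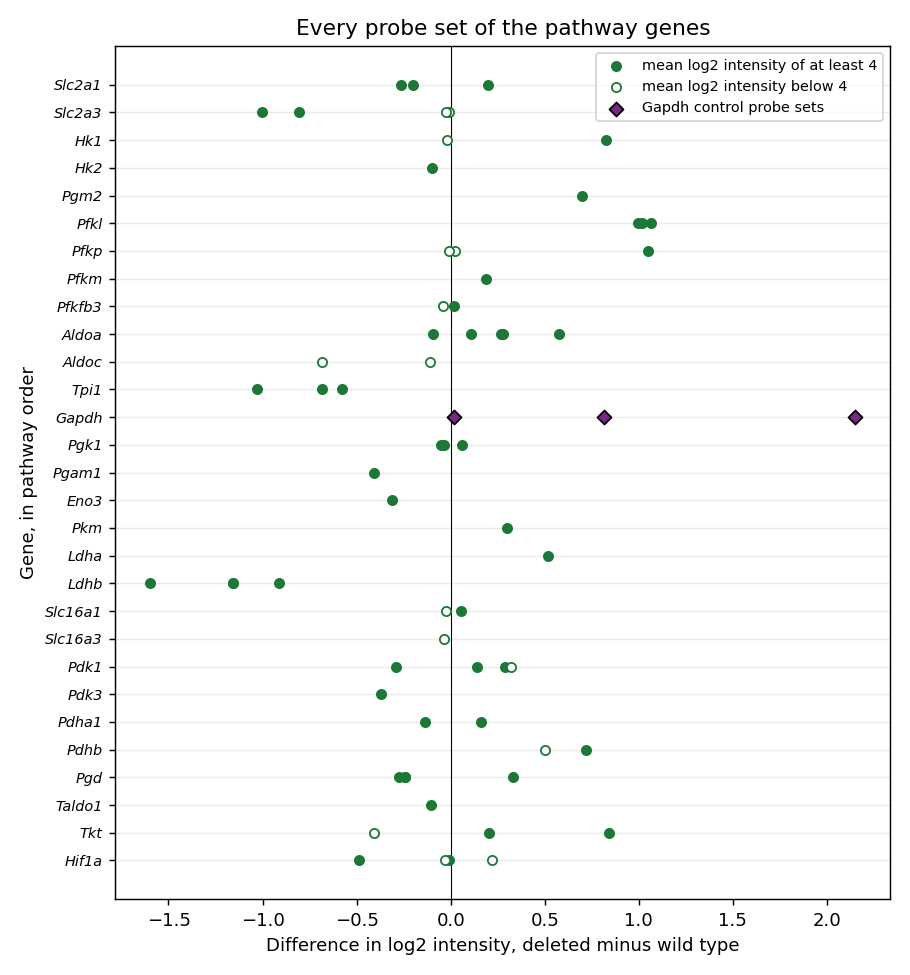
Difference in log2 intensity, deleted minus wild type, for each of the 68 probe sets of the 29 genes; open points have a mean log2 intensity below 4 and diamonds are the Gapdh controls. The probe sets of Ldhb, Tpi1 and Pfkl each lie on 1 side of 0, those of Slc2a1, Pdk1, Pgd and Aldoa lie on both sides, and the Gapdh controls spread from 0.019 to 2.15.

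Of the 68 probe sets, 53 were above the filter, and 10 of these were higher and 11 lower without overlap, against 19.1% and 20.8% of all probe sets above it. None had an adjusted p under 0.05 in limma (lowest 0.363, with 11 at an unadjusted p under 0.05), and the fit over all 14005 probe sets above the filter called 0%. These 11 include the middle and 5′ Gapdh controls and several probe sets each of Slc2a3, Pfkl and Ldhb, so they are not separate genes. The share of all probe sets at that unadjusted p was not counted, so the 11 cannot be set against a background. Where a gene had several probe sets above the filter, they had the same sign and no overlap for Slc2a3, Pfkl, Tpi1 and Ldhb. The genes whose own probe sets differed in sign (Slc2a1, Aldoa, Pgk1, Pdk1, Pdha1 and Pgd) had overlapping groups on each of them.

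Pyruvate dehydrogenase feeds pyruvate into the mitochondria and is switched off by the kinases PDK1 and PDK3. Pdhb, the beta subunit of its first component, read 10.51 and 10.01 in deleted cells and 9.38 and 9.70 in wild-type cells. The groups did not overlap, with a difference of 0.72 (SE 0.33, 95% interval -0.12 to 1.55, adjusted p = 0.596 in limma). The partner subunit Pdha1 read 9.16 and 8.59 against 8.66 and 8.77, with a difference of 0.16 (SE 0.36). Pdk1 read 9.27 and 8.998 against 9.11 and 9.74, and its 3 brighter probe sets lay between -0.29 and 0.29. Pdk3 read 6.02 and 6.64 against 6.96 and 6.43, lower by 0.37 (SE 0.42). For these 3 genes the deleted and wild-type arrays overlapped.

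In the pentose branch no measured gene separated the groups on its brightest probe set. G6pdx, also listed for this branch, had no probe set under its symbol. Pgd, an NADPH-yielding dehydrogenase, read 10.63 and 11.49 in deleted cells and 11.64 and 11.03 in wild-type cells, with a difference of -0.28 (SE 0.40). Taldo1 (transaldolase) read 10.66 and 10.07 against 10.50 and 10.43, a difference of -0.11 (SE 0.32). Tkt (transketolase), which returns pentoses to glycolysis, read 13.05 and 13.56 against 13.18 and 13.03, a difference of 0.20 (SE 0.23). Its dimmer probe set read 7.93 and 8.24 against 7.37 and 7.11 and was higher by 0.84 (SE 0.35, adjusted p = 0.553 in limma), so the Tkt probe sets differed in size of effect.

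Hif1a encodes the oxygen-regulated subunit of hypoxia-inducible factor 1, which is controlled mainly through protein stability and drives many of these genes. It read 11.21 and 11.01 in deleted cells and 10.32 and 11.90 in wild-type cells. The wild-type arrays lay on both sides of the deleted ones, and the mean difference was -0.0061 (SE 0.54, 95% interval -1.37 to 1.36). The next probe set had the same high wild-type replicate 2 (7.92 and 7.90 against 7.77 and 9.02). Leaving out 1 array moved the Hif1a difference between -0.79 and 0.78, so the transcript could not be compared at this spread.

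Among neighbouring gene lists 0 genes passed an adjusted p of 0.05 in limma. The lists were chosen with earlier results of these data known, so the shares given here and below describe them and cannot test enrichment. At an unadjusted p under 0.05 there were 4 of 10 tested hypoxia targets (40.0%), against 9.95% of all tested genes. The other lists held 2 of 23 regulators (8.7%), 1 of 10 pentose genes (10%), 1 of 7 pyruvate entry genes (14.3%), 1 of 16 side branch genes (6.25%), and 0 of 19 tricarboxylic acid cycle genes and of 5 isozymes. Counts without overlap are given below over the tested genes of each list, against 17.7% higher and 22% lower over all tested genes. Each gene of these lists was read on its brightest probe set alone. That probe set ends in _x_at or _s_at for Ndrg1, Pdpr, Psat1, Ugp2, Sdha, Idh3b, Rbks and Adpgk, so its signal may not be exclusive to the gene. Of 16 hypoxia response targets outside glycolysis 15 were measured and 10 tested, with 3 higher (30%) and 5 lower (50%). Bnip3, a mitophagy receptor gene, read 5.46 and 3.98 in deleted cells and 7.04 and 6.32 in wild-type cells and was lower by 1.96 (SE 0.60, adjusted p = 0.379 in limma). Ndrg1 was lower by 2.23 (SE 0.42) and P4ha1, a collagen prolyl hydroxylase subunit gene, was lower by 1.57 (SE 0.54), whereas Ddit4, an inhibitor of mTORC1 that is also stress-induced, was higher by 1.94 (SE 0.33, adjusted p = 0.137 in limma). The list thus held genes of both signs, with a median difference of -0.033 over the 15 measured genes and -0.20 over the 10 tested.

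Of 28 listed regulators of glycolysis 26 were measured and 23 tested, with 3 higher (13.0%) and 2 lower (8.7%) without overlap, both shares below the background. Arrdc4, a glucose-responsive target of the MondoA and Mlx factors that lowers glucose uptake, read 5.55 and 4.55 against 7.71 and 7.57 and was lower by 2.59 (SE 0.46, adjusted p = 0.153 in limma). Tsc1, a brake on mTORC1, was higher by 1.20 (SE 0.41), Hif1an by 0.47 (SE 0.38) and Mlx by 0.46 (SE 0.36). The median difference of this list was -0.011 over its measured genes.

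For pyruvate entry into mitochondria, 11 of 12 listed genes were measured and 7 tested, of which 3 were higher (42.9%) and 0 lower without overlap, against 17.7% and 22%. Pdpr, a regulatory subunit of pyruvate dehydrogenase phosphatase, read 9.15 and 10.23 against 8.26 and 8.54 and was higher by 1.29 (SE 0.46, adjusted p = 0.443 in limma). Pdp2, a catalytic subunit of that phosphatase, which switches the complex on, was higher by 0.94 (SE 0.51) and Dlat, the acetyltransferase of the complex, by 0.35 (SE 0.38). Among the 4 genes below the filter Pdk2, at the floor, was also higher without overlap.

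Of 19 genes of the tricarboxylic acid cycle, all tested, 3 were higher (Sdhc by 0.86, Idh2 by 0.84 and Idh3b by 0.35) and 3 lower without overlap, among them Sdha, lower by 0.45 (SE 0.26). That is 15.8% in each direction, below the background of 17.7% and 22%. Of 16 tested genes of side branches, 4 were higher (25.0%) and 3 lower (18.8%), near the same background. The largest difference there was in Gpd2, the mitochondrial glycerol 3-phosphate dehydrogenase that passes cytosolic reducing power to the respiratory chain. Gpd2 read 8.34 and 8.57 against 6.19 and 6.57, higher by 2.08 (SE 0.36, adjusted p = 0.148 in limma). Psat1, of serine synthesis, was lower by 1.05 (SE 0.42), Pygb (glycogen phosphorylase) was higher by 0.80 (SE 0.42) and Ugp2, which makes UDP-glucose, was lower by 0.63 (SE 0.30).

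Of 11 further genes of the pentose branch and ribose phosphate 10 were tested, and 2 were higher (20.0%) and 1 lower (10%) without overlap, against 17.7% and 22%. Prps1, which makes the ribose donor PRPP, was higher by 0.98 (SE 0.38), Pgls, the lactonase of this branch, by 0.57 (SE 0.31), and Rbks (ribokinase) was lower by 0.15 (SE 0.33). Of 22 isozymes and paralogs of the glycolytic steps 17 lay below the filter. Of the 5 tested, 2 were higher (40.0%) and 2 lower (40.0%) without overlap, against 17.7% and 22%. Over all 22, 2 were higher and 8 lower without overlap (9.09% and 36.4%, against 9.66% and 39.4% of all genes). The largest difference was in Eno2, the neuronal enolase, which was not tested because its mean of 3.77 fell short of the filter. Eno2 read 2.54 and 2.51 in deleted cells and 4.77 and 5.25 in wild-type cells, near the floor in deleted cells only and lower by 2.49, and it is named here after its values were seen. Among the 5 tested genes Bsg, the chaperone of the lactate transporters, was higher by 0.91 (SE 0.50) and Tigar, a fructose bisphosphatase, by 0.21 (SE 0.33), while Adpgk was lower by 0.51 (SE 0.40) and Slc2a6 by 0.32 (SE 0.33). None of these 4 passed the test.

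**Figure D5:**
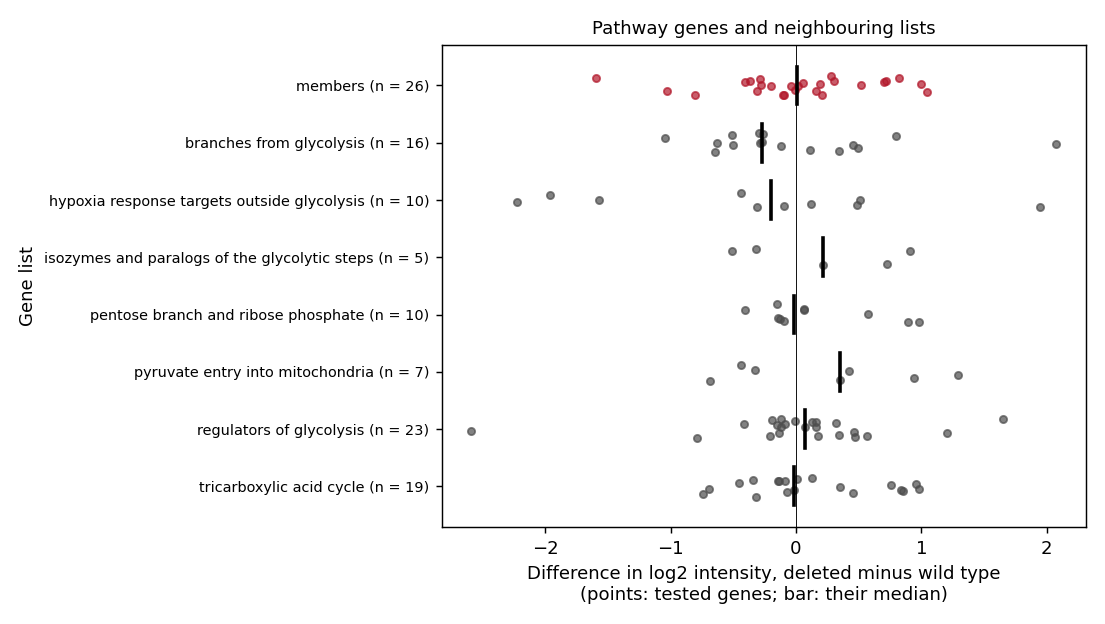
Difference in log2 intensity, deleted minus wild type, for tested genes of the pathway (red) and of 7 neighbouring lists (grey); each point is a gene and the bar is the median of a list's tested genes, without those below the filter. The pathway genes centre near 0 with Ldhb at the left end, and Ndrg1, Bnip3, Arrdc4 and Gpd2 are among the points farthest from 0.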

How the data were processed

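RNA from 4 samples was measured on single-colour arrays, 2 per group, and groups were read from the labels. Per the labels, extraction used Qiagen RNeasy and biotin labelling used Ambion Message Amp II. The authors deposited linear intensities from GCRMA (version 1.1.3, per the submitters' processing notes), which subtracts a sequence-dependent background, so that dim probe sets pile up at a floor. Their log2 was taken with no pseudocount added. Of 45101 probe sets, 34958 had 1 symbol and were used. The 932 with several (4 of them with a listed gene) and 9211 with none were not, and 64 control probe sets were kept out of gene values. Each gene took its brightest probe set. Genes past the filter (8629) were fitted with limma 3.58.1 in R 4.3.3 (lmFit, eBayes with trend, 2 residual degrees of freedom; two-sided, Benjamini-Hochberg over all), and probe sets, Gapdh controls included, likewise. The procedure was tested on simulated data. Alternatives changed filter, probe set choice, floor, normalization, prior, arrays and block. Named genes were Foxp3, all listed genes and, of each other list, up to 4 tested genes with the largest differences and no overlap. Eno2, Pdk2, Dld, Pcx, Mpc1, Me2 and the marker genes complete a count or check. The members and lists were chosen with earlier results of these data known.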

Additional observations from a re-analysis of the deposited data

How the results depend on the processing

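None of the listed genes passed an adjusted p of 0.05 under any of 13 alternatives; the lowest adjusted p was 0.118, for Ldhb with crossed replicate numbers as a block, an alternative chosen after seeing the data. Over all genes the count went from 0 to 27 with a stricter filter, 39 with the mean of all probe sets, 39 with quantile normalization and 35 with arrays centred on their median. Same-numbered arrays deviated in opposite directions (r = -0.30 over 8629 genes). With so few arrays per group the crossed numbers must give the mirrored value (r = 0.30). This correlation therefore cannot decide whether the numbers pair the samples, and the labels do not say. The replicate block gave 0 listed genes past the threshold and the crossed block 0, and over all genes both gave 0. Genes without overlap numbered 9 to 12 (higher) and 8 to 11 (lower) with 1 array left out, where fewer arrays make overlap rarer, against 5 and 5 with all, and the median difference then ranged from -0.062 to 0.11. Slc2a3, Hk1, Pgm2, Pfkl, Pfkp, Tpi1, Pgam1, Eno3, Ldha, Ldhb, Pdk3 and Pdhb kept their sign under every alternative in which they were tested, 12 of 26; Pgm2 and Eno3 fell out under the stricter filter. The sign of 14 turned when an array was left out, the cause not tested: Slc2a1 (-0.68 to 0.29), Hk2 (-0.47 to 0.27), Pfkm (-0.072 to 0.45), Pfkfb3 (-0.030 to 0.063), Aldoa (-0.068 to 0.62), Pgk1 (-0.21 to 0.14), Pkm (-0.29 to 0.89), Slc16a1 (-0.025 to 0.14), Pdk1 (-0.60 to 0.025), Pdha1 (-0.13 to 0.45), Pgd (-0.71 to 0.15), Taldo1 (-0.40 to 0.19), Tkt (-0.051 to 0.46) and Hif1a (-0.79 to 0.78). With the mean of all probe sets Pfkfb3 was at -0.012 and Pdk1 at 0.11, and with quantile normalization Pfkfb3 was at -0.017. Signal near the floor limits Aldoc, Slc16a3 and Pfkm.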
